A study of Mus musculus with 2 samples.

Results

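Among the GR1+ cells sorted from 4T1 tumors, 131 of the 5187 kept cells (2.53%) expressed a proliferation program, and these cells are described here. A cell, meaning a droplet barcode, was kept with 500 to 5000 detected genes and at most 10% of its UMIs (counted RNA molecules) from mitochondrial genes. It was called proliferating when at least 4 of 8 genes had at least 1 UMI, the genes being Top2a, Pclaf, Birc5, Ube2c, Tpx2, Ccna2, Cdca8 and Bub1. The choice was made on measured counts, so the levels of these 8 genes and of other cell cycle genes describe the selection and are given without a test.

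4T1 is a mouse mammary carcinoma line. 4T1P is its parental form, whose tumors do not respond to anti-PD1, and 4T1M is 1 clone derived from it by mutagenesis, whose tumors respond. Tumors grew in BALB/c mice aged 6 to 8 weeks, no anti-PD1 or other treatment is named for the cells profiled, and the labels give 5 mice pooled for each of the 2 conditions, while the study's own text gives another number of mice and an older age. GR1+ cells were isolated with magnetic beads by a GR1 antibody, which binds Ly6G and Ly6C, and 1 droplet library (10x Genomics) was made per condition. The sort and the pooling limit what a share means, since cells with little GR1 enter only in part and no spread between animals can be seen. The 4T1P library held 2947 barcodes with 21855657 UMIs, of which 1726 cells were kept, and the 4T1M library 5004 barcodes with 24303957 UMIs, of which 3461 were kept. The libraries shared 5 barcodes, of which 3 were among the kept cells and 0 among the proliferating cells. With 1 library per condition no test was possible, and all intervals below are exact 95% intervals that cover counting error only and not the spread between cells or animals.

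Dividing cells copy their DNA in S phase, which needs the MCM helicase, DNA clamps and the enzymes of nucleotide synthesis, and then pass through G2 into mitosis, which needs condensed chromosomes, a spindle and the checkpoint that watches it. Mature neutrophils have left the cell cycle and divide only as precursors, usually in the bone marrow, whereas tissue macrophages and activated lymphocytes can divide in place. Of the selecting genes, Top2a encodes the topoisomerase that untangles copied DNA, Pclaf a partner of the DNA clamp PCNA, Birc5 (survivin) and Cdca8 (borealin) subunits of the chromosomal passenger complex, Ube2c an enzyme that marks mitotic cyclins for destruction, Tpx2 a spindle assembly factor, Ccna2 cyclin A2 and Bub1 a spindle checkpoint kinase.

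Many genes of this program are switched on together through short promoter elements, so the promoters of a few selecting genes are shown. RefSeq promoter sequences (GRCm38.p6, 250 bases before to 50 after each start) were held for 6 of the 8 genes, all but Tpx2 and Ccna2. The 120 bases before the start are given 5′ to 3′ in the direction of the gene, with capitals marking 2 motifs. One is CCAAT, the site of the factor NF-Y, which appears as ATTGG when it lies on the opposite strand. The other is TTTGAA, the core of the element called the cell cycle genes homology region, which then appears as TTCAAA.
Top2a (chr11:99024190-99024309, minus strand): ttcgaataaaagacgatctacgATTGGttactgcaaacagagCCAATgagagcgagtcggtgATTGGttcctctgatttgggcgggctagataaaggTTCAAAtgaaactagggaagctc
Ube2c (chr2:164769809-164769928, plus strand): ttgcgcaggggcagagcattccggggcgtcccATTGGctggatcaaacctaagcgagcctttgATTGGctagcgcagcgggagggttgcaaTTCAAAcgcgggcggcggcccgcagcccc
Cdca8 (chr4:124936918-124937037, minus strand): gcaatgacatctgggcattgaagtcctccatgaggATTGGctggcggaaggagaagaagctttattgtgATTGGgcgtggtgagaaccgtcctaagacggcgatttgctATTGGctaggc
Birc5 (chr11:117849117-117849236, plus strand): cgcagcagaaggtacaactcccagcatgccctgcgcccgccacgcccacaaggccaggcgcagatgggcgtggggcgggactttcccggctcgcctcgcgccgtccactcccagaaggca
Top2a and Ube2c held several CCAAT boxes upstream of 1 TTTGAA element near the start. Cdca8 held 3 CCAAT boxes in this stretch and its TTTGAA just past the start, and Birc5 held neither motif as spelled. Over the whole windows and both strands, CCAAT was found in 5 of 6 and TTTGAA in 3 of 6, against 37.4% and 17.9% of all 32851 promoters. Among the 47 promoters of the G2/M genes used below, 74.5% held CCAAT and 66% held TTTGAA. Among the 35 promoters of the S phase genes the shares were 65.7% and 14.3%, and the E2F motif GGCGGGAA was found in 20% of these, against 2.13% of the G2/M promoters and 2.19% of all promoters. These are matches of letters in a window, not sites shown to be bound.

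The 69 proliferating cells of 4T1P made up 4.00% of its kept cells (3.12% to 5.03%, Clopper-Pearson) and the 62 of 4T1M 1.79% (1.38% to 2.29%). All 8 genes were seen together in 11 cells of 4T1P and 16 of 4T1M, whose median depths were 24727 and 21400.5 UMIs. Just inside the threshold, 22 and 17 cells had 4 of the 8 genes, with medians of 2263 and 3442 UMIs. Just outside it, 19 and 21 cells had 3, with medians of 2124 and 5491 UMIs. Cells on both sides of the threshold were thus alike in number and shallow in 4T1P. A second set of 8 genes that shares none with the first (Mki67, Cdk1, Nusap1, Ccnb2, Cenpf, Rrm2, Tyms and Hmmr) was seen at a median of 1.5 and 2 genes in the cells just inside, and of 1 and 2 in those just outside.

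**Figure D1:**
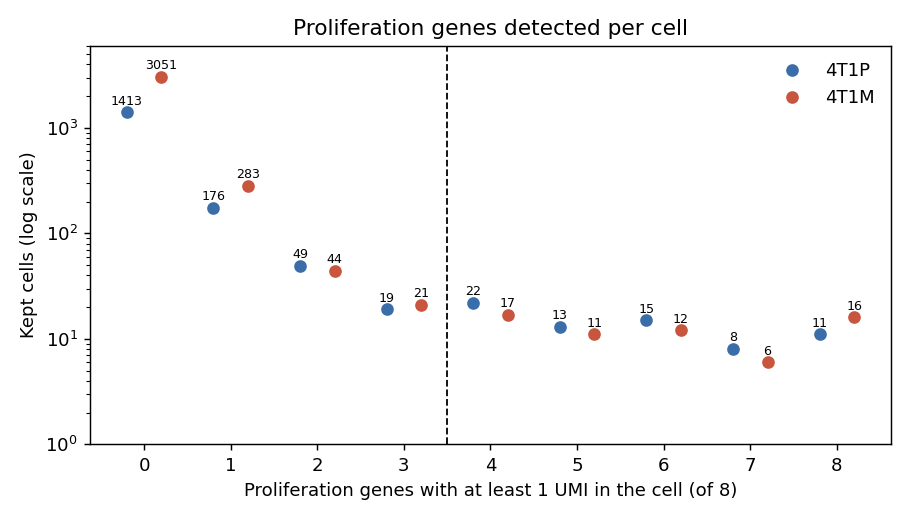
Kept cells (vertical axis, log scale) by the number of the 8 proliferation genes with at least 1 UMI (horizontal axis) in 4T1P (blue) and 4T1M (red), with the count printed over each point and a dashed line at the threshold. Most kept cells, 1413 and 3051, had none of the 8 genes.

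The selecting genes were scarce outside the proliferating cells. Top2a had 433 CPM (UMIs scaled by the total of the summed cells) in the summed proliferating cells of 4T1P and 493 in those of 4T1M, against 11.4 and 8.98 in all other kept cells. It was seen in 85.5% and 82.3% of the proliferating cells, and in 1.13% and 1.47% of mature neutrophil-like cells, which should lack it and were shallower (medians 2902 and 2738.5 UMIs, against 6736 and 13559.5). Mki67, the Ki-67 antigen and no part of the rule, was seen in 73.9% and 79.0% of proliferating cells and in 2.96% and 5.01% of mature neutrophil-like cells. Pcna, the DNA clamp, separated them less, at 65.2% and 66.1% against 13% and 15.3%.

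The lineage of each cell was called from 10 lists of marker genes, as the list with the highest share of its genes detected. Cells with fewer than 3 markers of any list stayed unnamed, and those whose second list reached 80% of the first were called mixed. Most proliferating cells were macrophage-like, with markers such as Csf1r (the receptor of the macrophage growth factor CSF1), C1qa (complement C1q) and Apoe (apolipoprotein E). They were 55 of the 69 proliferating cells in 4T1P (79.7%, 68.3% to 88.4%) and 46 of 62 in 4T1M (74.2%, 61.5% to 84.5%), while macrophage-like cells made up 44.7% and 25.9% of the other kept cells. A proliferating macrophage-like cell had a median of 11 of the 15 macrophage markers in 4T1P and 12 in 4T1M, beside 1 and 4 of the 15 neutrophil markers. Neutrophil-like cells, which formed 43.4% and 64.4% of the other kept cells, supplied 3 and 6 proliferating cells. The remainder were 4 and 2 T- or NK-like, 1 and 3 B-like, 1 and 0 tumour-epithelial-like, 1 and 5 mixed, and 4 and 0 unnamed cells. Few calls were close, with 1 and 3 proliferating cells whose second list reached between 0.7 and 0.9 of the first.

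**Figure D2:**
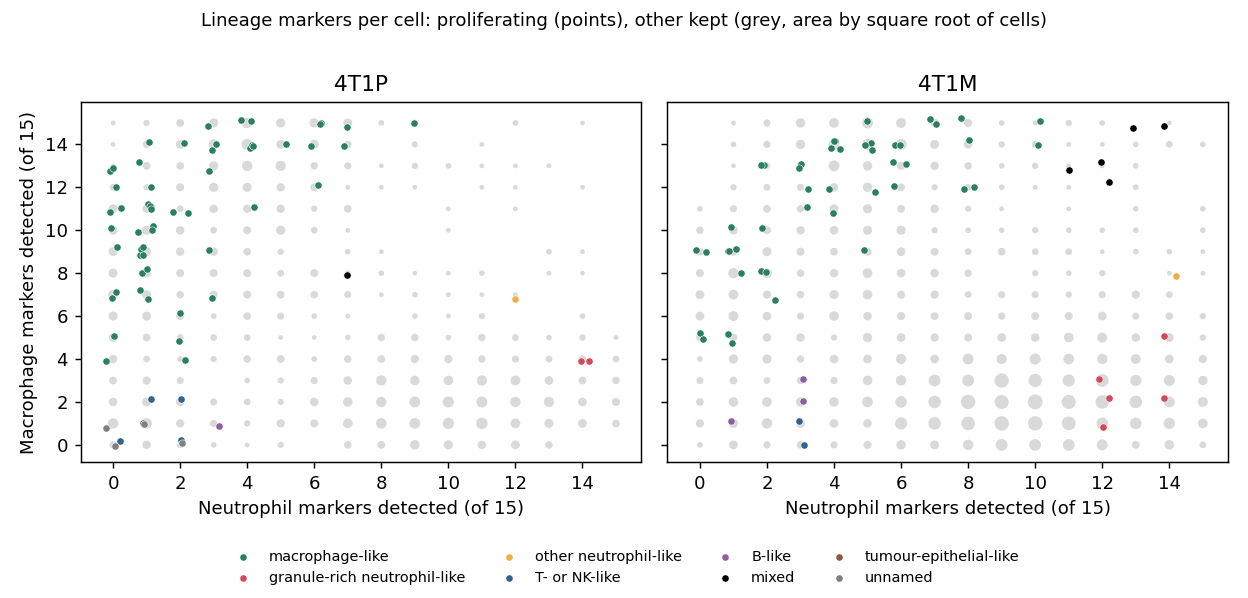
Each proliferating cell by the number of 15 neutrophil markers (horizontal axis) and of 15 macrophage markers (vertical axis) detected in it, colored by lineage call, with a small random offset, in 4T1P (left) and 4T1M (right). Grey circles are the other kept cells, with area set by the square root of their number. Most colored points lie high on the macrophage axis and low on the neutrophil axis, and the 7 granule-rich cells lie at 12 to 14 neutrophil markers.

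Seen from the lineages, 6.91% of macrophage-like cells were proliferating in 4T1P (55 of 796, 5.25% to 8.90%) and 4.97% in 4T1M (46 of 926, 3.66% to 6.57%), intervals that overlap. Among all cells that were not macrophage-like the share was 1.51% (14 of 930) and 0.631% (16 of 2535). In neutrophil-like cells it was 0.416% (3 of 722, 0.0858% to 1.21%) and 0.273% (6 of 2194, 0.100% to 0.594%). The lower share over all kept cells of 4T1M stood beside its larger number of neutrophil-like cells. Dendritic-like cells held 0 of 5 and 0 of 4 proliferating cells, numbers too small to say more.

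**Figure D3:**
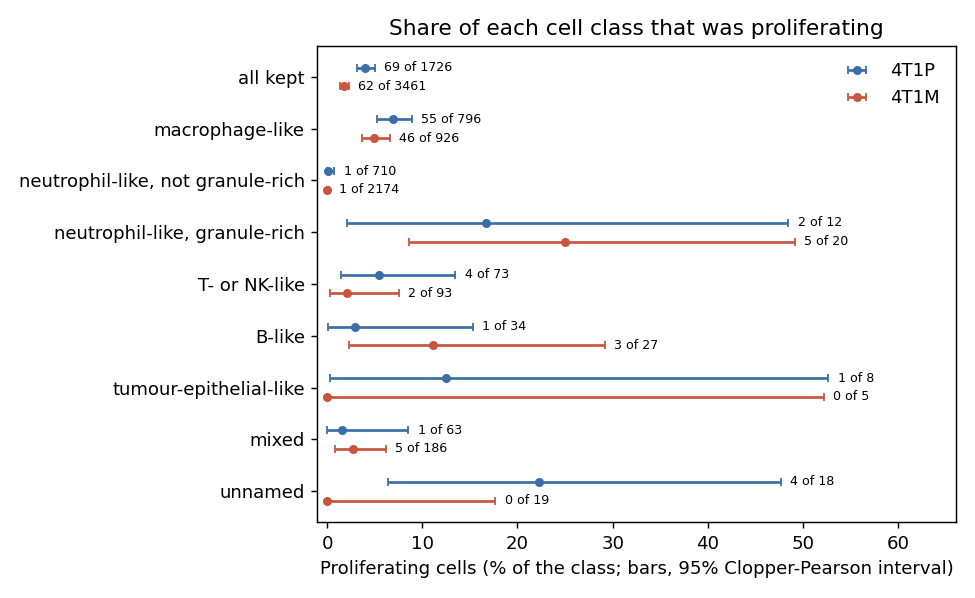
Share of each cell class that was proliferating (horizontal axis, % of the class) in 4T1P (blue) and 4T1M (red), with exact 95% intervals and the counts beside each point. Macrophage-like cells lie at 6.91% and 4.97% and the neutrophil-like cells that were not granule-rich at 0.141% and 0.0460%.

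A deeper cell has more chances to show 4 genes, so the shares were also counted at a common number of UMIs. With every cell reduced at random to 2000 UMIs, a step that removed 334 cells of 4T1P and 763 of 4T1M (12 and 7 proliferating) as too shallow, 2.44% of macrophage-like cells met the rule in 4T1P (15 of 615, 1.37% to 3.99%) and 1.52% in 4T1M (11 of 726, 0.759% to 2.69%). Cells that were not macrophage-like met it in 0.644% (5 of 777, 0.209% to 1.5%) and 0.203% (4 of 1972, 0.0553% to 0.519%). Macrophage-like cells were above all other cells as 1 group, with intervals that overlapped in 4T1P and not in 4T1M, while T- or NK-like and B-like cells, with 1 cell each per library that met the rule, could not be ranked. A difference between the libraries in macrophage-like cells was not detectable at this depth. Unthinned, the macrophage-like proliferating cells had medians of 6009 and 12386 UMIs, against 9703 and 9170 in the other macrophage-like cells. Within each of their 2 main clusters (described below), they were deeper than all macrophage-like cells of that cluster in both libraries. In 4T1P the medians were 20746.5 against 17831 UMIs in one cluster and 3384 against 1794 in the other. In 4T1M they were 18833.5 against 14491 and 3249 against 1659.

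Summed UMIs showed a difference in the neutrophil list and less in the macrophage list. Of 15 neutrophil markers, 12 were at least 2-fold lower in proliferating than in other kept cells in both libraries (median log2 ratio -2.16 in 4T1P and -2.06 in 4T1M), beside 4.71% of all 12097 genes with at least 10 UMIs. Retnlg, a resistin-like protein of mature neutrophils, had 50.1 and 395 CPM against 1584 and 2068, and G0s2, a lipolysis inhibitor abundant in neutrophils, 195 and 307 against 1238 and 1804. None of the 15 macrophage markers passed 2-fold in the same direction in both libraries (medians -0.10 and 0.32). With means of CPM over cells in place of sums, these medians were 0.32 and 1.21. At least 2-fold higher in both libraries were 8.08% of all genes, among them 6 of 14 T or NK markers (medians 1.64 and 1.10) and 5 of 9 immature neutrophil markers (1.05 and 2.43). The last 2 medians were over 10 genes in each library, and over the 9 genes they were 1.24 and 2.65. The B list split with the library (-0.32 and 1.89), as its cells did (1 and 3). The 5 erythroid genes with enough UMIs were all at least 2-fold lower (-4.54 and -6.55), 4 of them also with a gene at 0 UMIs set at 3 (medians -4.36 and -3.96), with 2 UMIs of Hbb-bs, a beta globin, in the proliferating cells of each library.

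Scaling bears on the sums of all lineages. In all, 977 genes were at least 2-fold higher and 570 lower in both libraries, with all-gene medians of 0.08 and 0.27, whereas TMM factors lowered every ratio by 0.15 in 4T1P and 0.29 in 4T1M and gave 687 higher and 844 lower. Many of the lower genes had 0 UMIs in the proliferating cells, and 372 remained when such genes were set at 3 UMIs. Genes named by a rule of size included, on the higher side, Cep55 (the last cut of cell division), Prc1 and Racgap1 (the central spindle), Kif15 and Knstrn (the mitotic spindle), Smc2 (a condensin subunit), Pttg1 (securin) and Lig1 (DNA ligase of replication), each at least 7.48-fold higher in both libraries, with Ccdc34 and the granule gene Camp after them. On the lower side stood Wfdc17, G0s2, Clec4d, Hcar2, Retnlg, Lyst, Acod1, Hdc, Cxcl3 and Gadd45a, several of them markers of neutrophils.

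Macrophage-like cells were then compared among themselves, which narrowed the difference in the neutrophil list. That list had medians of -1.11 in 4T1P and -0.39 in 4T1M, with 1 of 14 genes at least 2-fold lower in both libraries. With genes at 0 UMIs set at 3 the 4T1P median was -0.54. Of the 14 genes, 9 were lower in both libraries by any amount and 2 higher in both, beside 27.5% of all genes that were lower in both. Of the 10912 genes that reached 10 UMIs in each library, 543 (4.98%) were at least 2-fold higher and 253 (2.32%) at least 2-fold lower in the proliferating cells of both libraries, or 141 lower with a gene at 0 UMIs set at 3. Because the rule picked cells by genes of the same program, the cell cycle genes below describe how complete that program was. Of the 40 S phase genes with enough UMIs, 29 were at least 2-fold higher and 0 lower (medians 2.06 and 2.11). Of the 45 G2/M genes, 40 were higher and 0 lower (3.57 and 3.74).

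Replication genes were higher as a group. Of 11 genes that license origins of replication, 8 were at least 2-fold higher in both libraries (medians 2.24 and 1.91). Mcm5, a subunit of the MCM helicase, had 90.7 CPM against 12.2 in 4T1P and 74.5 against 12.4 in 4T1M. Of 8 genes of nucleotide synthesis, 7 were higher (2.85 and 3.08). Rrm2, the subunit of ribonucleotide reductase made in S phase, had 75.3 against 2.87 CPM in 4T1P and 70.9 against 1.67 in 4T1M. Tyms, thymidylate synthase, had 77.0 against 6.60 and 101 against 6.57. Pcna differed less, at 276 against 118 and 255 against 117 CPM.

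Mitotic genes showed the widest gaps among the lists given here. Most of the selecting genes act late in the cycle, so this order was in part set by the rule. Of 13 genes of the spindle checkpoint and kinetochore, 12 were at least 2-fold higher in both libraries (medians 4.67 and 4.49). Cenpe, a kinetochore motor, had 125 CPM against 1.87 in 4T1P and 108 against 2.39 in 4T1M. Cdk1, the kinase that starts mitosis, had 73.6 against 4.61 and 53.2 against 4.06, and its partner Ccnb2, cyclin B2, had 73.6 against 4.73 and 85.1 against 2.98. Mki67 was less exclusive, at 483 against 73.9 and 445 against 91.8. Of 14 histone, chromatin and tubulin genes, 12 were higher (1.81 and 1.99), among them Hist1h1b, a histone H1 made in replication, at 187 against 6.48 and 186 against 3.58, and Stmn1, a microtubule regulator, at 464 against 31.1 and 449 against 22.6.

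**Figure D4:**
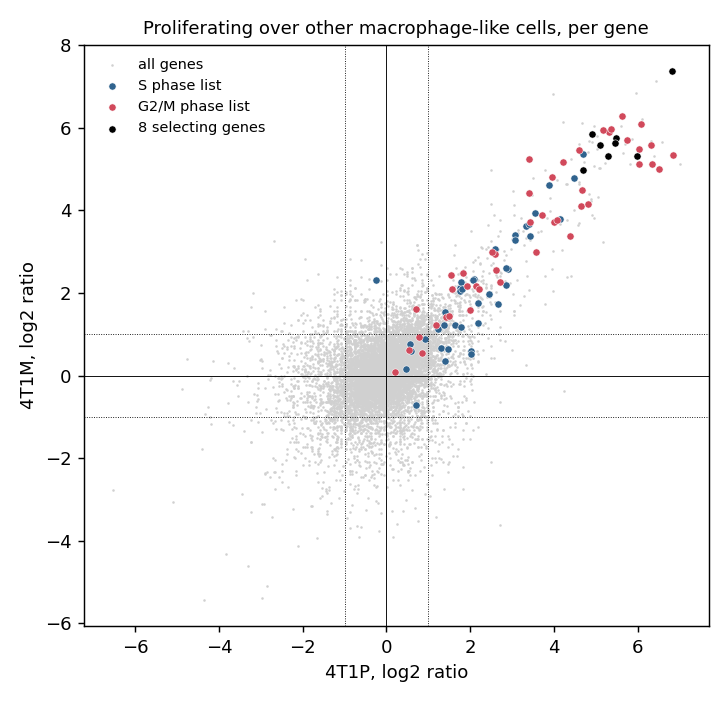
Log2 ratio of proliferating over other macrophage-like cells for each gene in 4T1P (horizontal axis) and 4T1M (vertical axis), with the 8 selecting genes (black), the S phase list (blue), the G2/M list (red) and all other genes (grey), and dotted lines at 2-fold. The G2/M genes lie farther from 0 than the S phase genes in both libraries, with medians of 3.57 and 3.74 against 2.06 and 2.11. Most of the selecting genes act late in the cycle, so this order was in part set by the rule.

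The growth factor end of the cycle moved less, an order that a selection by mostly late genes also favors. Of 10 cyclin and CDK genes, 5 were at least 2-fold higher (medians 1.11 and 1.72). Ccnd1, the cyclin D1 that answers growth signals, had log2 ratios of 0.65 and 0.45 and its partners Cdk4 and Cdk6 0.74 and -0.05 in 4T1P and 0.91 and 0.06 in 4T1M, all under 2-fold. Of 9 inhibitors and brakes, 1 was at least 2-fold higher in both libraries, beside 4.98% of all genes. This was Cdkn2c (p18INK4c), at 30.8 against 3.86 and 37.2 against 1.67 CPM. Cdkn1a (p21) had 339 against 591 CPM in 4T1P and 580 against 668 in 4T1M, and the antiproliferative gene Btg1 654 against 1542 and 1067 against 1617, neither 2-fold lower in both. Of 7 colony-stimulating factor and receptor genes, 0 were higher and 1 was lower, beside 2.32% of all genes that were lower. This was Csf2rb2, with log2 ratios of -1.44 and -1.07. Csf1r had 452 CPM in the proliferating cells of both libraries, against 520 and 535 in the others.

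Per cell, G2/M RNA outweighed S phase RNA in most of these cells. The proliferating macrophage-like cells had a median of 5.39 G2/M list UMIs per 1000 in 4T1P and 6.14 in 4T1M, against 1.01 and 1.10 in the other macrophage-like cells. For the S phase list the medians were 1.73 and 1.85, against 0.565 and 0.577. More S phase than G2/M UMIs were found in 12 of 55 and 4 of 46 of these cells. The lists differ in size and abundance and most of the selecting genes act late in the cycle, so these counts do not give the length of a phase.

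Both groups were called from the same 15 macrophage markers, so like levels of these were in part set by the call and are given as a description. Of these 15 macrophage markers 1 was at least 2-fold lower in both libraries, beside 2.32% of all genes, and the list medians were -0.28 and -0.20. This was Ms4a7, a membrane protein of tissue macrophages, at 83.9 against 205 and 67.4 against 162 CPM. C1qa had 3263 against 3007 CPM in 4T1P and 3500 against 3166 in 4T1M, and Cx3cr1, the fractalkine receptor, 252 against 200 and 296 against 233. Of 7 classical monocyte genes 3 were at least 2-fold lower (medians -1.57 and -0.96), beside 253 of all 10912 genes. With genes at 0 UMIs set at 3, only 1 was (medians -0.80 and -0.96), beside 141 of all 10912 genes. Ly6c2, which defines those monocytes and is part of the GR1 epitope, had 0 UMIs in the proliferating macrophage-like cells of both libraries, where 3 UMIs would be 5.14 and 5.32 CPM, against 6.10 and 30.0 CPM in the others, so that the 4T1P difference is close to what 0 UMIs allow. Ccr2, the receptor that brings monocytes into tissue, differed little, at 423 against 508 and 387 against 412.

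Several abundant secreted or enzyme genes were among those named as lower by the rule of size. Mmp12 (macrophage elastase) had 486 CPM against 1199 in 4T1P and 374 against 1319 in 4T1M. Mmp13 (a collagenase) had 66.8 against 389 and 163 against 404. Ptgs2 (cyclooxygenase 2) had 339 against 1046 and 321 against 1082. Of 14 genes of glycolysis and hypoxia 1 was at least 2-fold lower in both libraries, beside 2.32% of all genes. This was Vegfa, the vascular growth factor, at 164 against 446 and 168 against 376 CPM. Of 11 M2-like genes, Chil3 and Retnla were at least 2-fold lower in both libraries also with 0 UMIs set at 3, beside 141 of all 10912 genes. They had 0 or 1 UMI in the proliferating cells of each library. Lyve1, a marker of resident macrophages, had 0 UMIs against 79.6 and 5.97 CPM in the others, the latter close to the 5.32 CPM of 3 UMIs. Other genes named by the rule of size were, on the higher side, Ezh2 (the Polycomb methyltransferase), at 118 against 27.8 and 128 against 28.8, H2afv, Topbp1, Sae1, Lsm2, Selenoh and Ccdc34, and on the lower side S100a6, Ctsl, Hspa1a, Fabp5, Lrp1 and Cxcl3. Cxcl3, a neutrophil-attracting chemokine, turned direction within the Cx3cr1-led cluster described below, where its 4T1P log2 ratio was 0.68 against -1.14 over all macrophage-like cells. Of its 131 UMIs in the proliferating macrophage-like cells of 4T1P, 127 were in that cluster and 1 cell held 73. The turn thus rests mostly on 1 cell.

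MHC class II genes, which present antigen to CD4 T cells, were present at high levels. All 7 genes together had 10788 CPM in the proliferating macrophage-like cells of 4T1P and 14749 in those of 4T1M, against 14637 and 20705 in the others. The 7 list genes had medians of -0.43 and -0.47, and 0 passed 2-fold. Of 20 interferon response genes 1 was at least 2-fold higher in both libraries, close to the 4.98% of all genes. This was Cxcl9, the chemokine that draws T cells, at 346 against 131 and 308 against 142 CPM. Much of its RNA came from few cells, since it was seen in 12 of 55 and 11 of 46 cells and 1 cell of each library held 44.1% and 52.3% of its UMIs.

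Clustering without the cell cycle genes placed the proliferating macrophage-like cells in 2 main groups. In a cluster led by Cx3cr1, C6, Col14a1, Adamdec1 and Vcam1, 20 of 255 macrophage-like cells of 4T1P (7.84%) and 24 of 391 of 4T1M (6.14%) were proliferating. These proliferating cells had medians of 20746.5 and 18833.5 UMIs. In a cluster led by Ccl12, Banf1 and Ranbp1, whose cells had a median of 1692 UMIs, 33 of 288 (11.5%) and 19 of 295 (6.44%) were proliferating, at medians of 3384 and 3249 UMIs. By contrast, macrophage-like cells of the cluster led by Plpp3, Sdc1 and Thbs1, which also leads in Mmp12, were proliferating in 1 of 168 and 2 of 204 cases (0.595% and 0.980%). Those of the Lyve1 and Cd163 cluster were proliferating in 1 of 80 and 0 of 23. The Ccl12 cluster held most of the proliferating macrophage-like cells of 4T1P and the Cx3cr1 cluster most of those of 4T1M, and the cells of the former were shallow in both libraries. The clusters rest on the same counts, so their leading genes are no separate finding.

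Proliferating macrophage-like cells of 4T1M were set against those of 4T1P to see whether the tumor that responds to anti-PD1 had them in another state. Of 7851 genes with enough UMIs, 564 (7.18%) were at least 2-fold higher and 372 (4.74%) at least 2-fold lower in 4T1M, without replicates. Interferon response genes were higher in 4T1M in 19 of 20 cases, 15 of them at least 2-fold, with a median log2 ratio of 1.21. In the other macrophage-like cells 17 of the 20 were higher, with a median of 0.95, so the direction was shared with cells that were not proliferating.

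Rsad2 (viperin, an antiviral enzyme) had 351 CPM in 4T1P and 947 in 4T1M, with 0.27 and 0.31 as log2 ratios over the other macrophage-like cells. Isg15, a ubiquitin-like protein, had 294 and 695. Ly6e, a surface protein, had 154 and 548 CPM, a log2 ratio of 1.82 (1.49 to 2.19), and was seen in 20 of 55 and 38 of 46 cells. Irf7, a factor that amplifies the response, had 35.9 and 172 CPM and was seen in 14 and 25 cells. Some list genes rest on few cells, such as Cmpk2, seen in 1 cell of 4T1P and 3 of 4T1M. With the highest cell of each library left out gene by gene, 19 of 20 were higher and 16 at least 2-fold. Within the Cx3cr1 cluster alone (20 and 24 cells) 15 were at least 2-fold higher, as they were among cells of at least 5000 UMIs (30 and 26 cells), while with TMM scaling 12 were and with means of CPM over cells 11 were. Counts of cells with a UMI are not matched for depth here, since these cells had medians of 6009 UMIs in 4T1P and 12386 in 4T1M.

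All 7 MHC class II genes were higher in 4T1M and 0 passed 2-fold, with a median of 0.51, equal to the 0.51 of the other macrophage-like cells. H2-Aa, an alpha chain, had 1874 CPM in 4T1P and 2661 in 4T1M. The cell cycle lists hardly differed, with medians of 0.02 for 38 S phase genes and 0.07 for 46 G2/M genes. The all-gene median was 0.05.

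**Figure D5:**
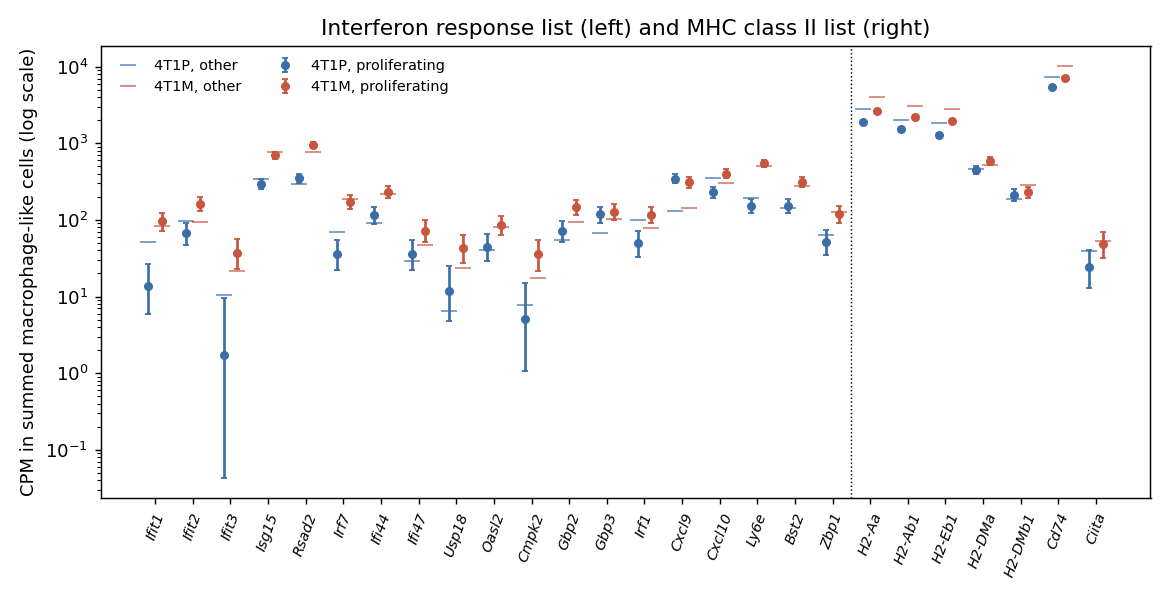
CPM (vertical axis, log scale) of 19 of the 20 interferon response genes (left of the dotted line) and 7 MHC class II genes (right) in summed macrophage-like cells of 4T1P (blue) and 4T1M (red). Circles with exact 95% Poisson intervals are proliferating cells and dashes are other macrophage-like cells. Among the circles, interferon genes lie higher in 4T1M in all but Cxcl9.

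Neutrophil markers were compared in the same cells. Of 11 neutrophil markers with enough UMIs, 8 were higher, 6 of them at least 2-fold, and 3 lower in the proliferating macrophage-like cells of 4T1M, with a median of 1.13, against 0.76 in the other macrophage-like cells. Of all genes, 7.18% were at least 2-fold higher and 4.74% at least 2-fold lower. The 15 markers summed to 1058 CPM in 4T1P and 2308 in 4T1M. S100a9 had the most UMIs of the list, with 365 and 800 CPM, S100a8 had 185 and 605, and the defining marker Ly6g had 0 UMIs in both libraries. Neutrophil-like cells were also a larger share of the 4T1M library, and the part of their RNA in the differences between the libraries was not tested.

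Among single genes that reached 200 CPM in either library, the highest ratios of 4T1M over 4T1P were those of Ccl8, Mt2, Plac8, Ly6e, S100a8, Oasl1, Ccl5, Rsad2, Gbp4 and Acod1. Ccl8, a monocyte-attracting chemokine, had 110 and 681 CPM, but 1 cell of 4T1M held 352 of its 384 UMIs, and without the highest cell of each library its log2 ratio fell from 2.63 to 0.84. Mt2, a metallothionein, was alike, with 119 of 163 UMIs in 1 cell and a ratio of 2.25 that became 0.77. Ccl5, a T cell attractant, was seen in 12 of 55 and 22 of 46 cells and kept its direction, with 1.43 and 1.85. The lowest ratios were those of S100a4, Lmna, Ccl9, Hmox1, AY036118, S100a6, Ccl6, Capg, Cxcl3 and Itgam. S100a4 had 212 and 10.6 CPM and was seen in 17 of 55 and 3 of 46 cells. Lmna, which encodes lamin A of the nuclear envelope, had 349 and 78.0 CPM and was seen in 37 and 17 cells. Hmox1, heme oxygenase 1, had a log2 ratio of -1.58, which was 0.35 within the Cx3cr1 cluster.

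The neutrophil-like proliferating cells were mostly granule-rich precursors. Granule-rich was set as at least 6 of the 12 immature neutrophil markers, and 2 of 12 such cells in 4T1P (16.7%, 2.09% to 48.4%) and 5 of 20 in 4T1M (25%, 8.66% to 49.1%) were proliferating, against 1 of 710 and 1 of 2174 of the other neutrophil-like cells. The rule favors deep cells (medians 20324 and 16567 UMIs), and in the wider cluster led by Camp, Ngp and Ltf (median 9919 UMIs) 2 of 42 and 5 of 81 cells were proliferating. Each of the 7 held 562 to 1731 UMIs of Camp (cathelicidin), 138 to 398 of Ltf (lactoferrin) and 463 to 1571 of Ngp, all proteins of secondary granules. Genes of the primary granules, made earlier, were low, with 0 UMIs of Mpo (myeloperoxidase), 0 or 1 of Elane (neutrophil elastase) in each cell and 11 UMIs of Prtn3 (proteinase 3) over 6 of the 7 cells. Prtn3 had 50.4 CPM against 107 in the other granule-rich cells of 4T1P and 76.1 against 52.9 in 4T1M, on 3 and 8 UMIs. Genes of mature neutrophils differed unevenly from the 25 other granule-rich cells. Retnlg had 443 against 5304 CPM, Mmp8 12.1 against 428 and Csf3r, the G-CSF receptor, 42.5 against 241. Ly6g had 899 against 1539, with 521 against 1731 in the 2 cells of 4T1P and 1112 against 1393 in the 5 of 4T1M. Cxcr2, a chemokine receptor of mature neutrophils, had 370 against 188 CPM in 4T1P, with 21 of its 22 UMIs in 1 cell, and 162 against 257 in 4T1M, and S100a8 and S100a9 had log2 ratios of -0.02 and 0.16. These 7 cells held 99.9% and 95.4% of the Camp UMIs of all proliferating cells in 4T1P and 4T1M, 99.8% and 86.2% of those of Ltf and 99.96% and 93.4% of those of Ngp, but 3 of 23 and 8 of 30 UMIs of Prtn3. They were deep, at 10782 to 32008 UMIs. The 2 other neutrophil-like cells, 1 per library, had 12 and 14 neutrophil markers beside 7 and 8 macrophage markers.

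The lymphoid proliferating cells carried defining genes of their lineages. They were called from lists of lineage markers, so the presence of such genes was in part set by the call and is given as a description. All 6 T- or NK-like cells held Cd3d, Cd3e, Cd3g and Trac, parts of the T cell receptor complex. Cd8a or Cd8b1 was seen in 5 of 6, against 79 of 160 of the other T- or NK-like cells (49.4%), and Cd4 in 1 of 6 against 39 of 160. The other cells differed by library, with Cd8a or Cd8b1 in 29.0% of 69 in 4T1P and 64.8% of 91 in 4T1M. The proliferating cells were deeper (median 12824 UMIs against 5524.5), so the shares are not matched for depth. All 4 B-like cells held Cd79a and Ms4a1 (CD20). Ighd, the heavy chain of naive B cells, was seen in 0 of 4 against 26 of 33 other B-like cells of 4T1P and 5 of 24 of 4T1M, and Jchain, which joins secreted antibodies, in 4 of 4 against 4 of 33 and 10 of 24. These 4 cells held 10656 to 12805 UMIs, against medians of 4413 and 5986 in all B-like cells, so these shares are not matched for depth either. Proliferating were 5.48% of 73 T- or NK-like cells in 4T1P and 2.15% of 93 in 4T1M, and 2.94% of 34 and 11.1% of 27 B-like cells, each with a wide interval (for the last 2.35% to 29.2%).

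Tumor cells were rare among the proliferating cells within these limits. Krt8 or Krt18, keratins of the carcinoma cells, were seen in 5 of 69 proliferating cells of 4T1P (7.25%, 2.39% to 16.1%) and 1 of 62 in 4T1M (1.61%, 0.0408% to 8.66%). The shares in mature neutrophil-like cells, which should lack them, were 4.08% and 2.94%, inside both intervals, so that 1 UMI does not set a cell apart from background. At least 5 UMIs were found in 2 of 69 proliferating cells of 4T1P (2.90%, 0.353% to 10.1%) against 1 of 710 mature neutrophil-like cells (0.141%, 0.00357% to 0.782%), and in 0 of 62 against 0 of 2174 in 4T1M. Among all other kept cells, at least 5 UMIs were found in 8 of 1657 in 4T1P (0.483%, 0.209% to 0.949%) and 6 of 3399 in 4T1M (0.177%). At least 1 UMI was found in 5.19% and 3.12% of them. The 1 cell called tumour-epithelial-like, in 4T1P, had 5 UMIs of Krt8, 5 of Krt18, 7 of the 8 selecting genes and 0 UMIs of Ptprc, the leukocyte antigen CD45, at 3978 UMIs in all. The cluster led by Ccn1, Sparc, Krt8 and Krt18 held 3 proliferating cells of 22 in 4T1P and 0 of 9 in 4T1M. The 4 unnamed cells, all in 4T1P, had 788 to 2986 UMIs and 0 of Ptprc, and 2 of them had 2 and 6 UMIs of Krt18.

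The 6 mixed cells carried macrophage and neutrophil markers at once. The deepest, in 4T1M, had 31601 UMIs with 1970 of S100a8 and 101 of C1qa. It and 1 other mixed cell of 4T1M were the 2 proliferating cells among the highest doublet scores of Scrublet.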

How the data were processed

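1 droplet library of GR1+ cells per condition was analysed. The deposited values are whole UMI counts of each gene in each barcode, made by the authors with Cell Ranger 4.0.0 on mm10 per the submitters' processing notes (the study's methods name another version), without normalization. The cells, gene lists and comparisons were chosen with earlier results of these data known.

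UMIs were summed over cells and scaled to CPM by their total. Log2 ratios used a pseudocount of 0.5 UMIs and genes with at least 10 UMIs in the sums compared, and a call was a 2-fold difference in the same direction in both libraries. A list median was taken over the genes with enough UMIs in that library, which can be more than those counted in both libraries. Beside these calls, counts and medians are given with genes at 0 UMIs set at a floor of 3 where this changed them, an alternative added after the data were seen. Ratios have exact conditional intervals. Besides list members, the 10 genes with the highest and lowest ratios were named (at least 100 UMIs, or 200 CPM between libraries), outside the cell cycle lists. Predicted, ribosomal and mitochondrial genes were counted but not named, and some list members are not reported here. Doublets were not removed, since Scrublet called 8 of 7951 barcodes (0.101%), too few to be of use. As an alternative, the top scores were removed at 0.8% per 1000 barcodes (177 kept cells). Clusters used scanpy 1.11.5 (3000 variable genes, 25 components, 20 neighbours, Leiden at 0.75). Other alternatives were other thresholds and limits, thinning, the second gene set, cluster lineages, TMM (edgeR 4.0.16) and DESeq2 1.42.0 factors for scaling only, no filter, means over cells and, added after the data were seen, single clusters and cells of at least 5000 UMIs. Python 3.11.15 and scipy 1.17.1 were used, and the ratios and intervals were tested on simulated data.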

Additional observations from a re-analysis of the deposited data

Results flagged for a closer look

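Cells outside the limits also expressed the program. Among barcodes over 5000 genes, 36% of 136 in 4T1P and 42.9% of 49 in 4T1M had at least 4 of the 8 genes, with 35 and 13 of them macrophage-like and 10 and 3 tumour-epithelial-like. Among barcodes over 10% mitochondrial UMIs the shares were 3.81% and 1.91%, and among those under 500 genes 0.451% and 0.196%. Deep barcodes can hold more than 1 cell, and the part of doublets in these shares was not tested.

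Several lists had medians of opposite sign in the libraries, and the differences were not tested. Between proliferating and other kept cells (4T1P, then 4T1M), the monocyte/macrophage list had medians of -0.10 and 0.32, the B list -0.32 and 1.89, the tumour epithelial list 0.22 and -1.39, MHC class II -0.26 and 0.22, the M1-like list -0.34 and 0.13 and the M2-like list -0.89 and 0.77. Of the 11 tumour epithelial genes, 7 had 0 UMIs in the proliferating cells of each library, so the medians of that list rest partly on the pseudocount. With TMM scaling the 4T1M medians of MHC class II and the M1-like list became -0.08 and -0.16. Between proliferating and other macrophage-like cells, the immature neutrophil list had -0.52 and 0.25, the interferon response list -0.11 and 0.35 and the M2-like list -1.24 and 0.065, which became -0.09 in 4T1M with TMM. Among the named genes, Ccl8 had log2 ratios of -1.59 and 1.62, Mt2 -1.11 and 1.23, S100a8 -0.31 and 0.51 and Lmna 0.83 and -0.84, and the Ccl8 and Mt2 values of 4T1M rest mostly on 1 cell each.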

How the results depend on the processing

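No paired analysis was possible because each condition is 1 pooled library, and no replicate could be left out. Of 178 planned values that answer a comparison, 138 stayed the same, 40 moved and 0 reversed. The same meant inside the interval of the main value or, for a count of genes, within a set factor of it. That factor was wide enough to hold 687 (TMM) beside 977 genes. Reversed meant a change of sign in a value of at least 2-fold. Smaller values that changed sign counted as moved, such as the macrophage list of 4T1P with means of CPM over cells (-0.10, then 0.32). The G2/M median between the libraries did so with no upper gene limit (0.07, then -0.11). For all kept and for macrophage-like cells, a rule of at least 3 genes gave 5.10% and 8.92% in 4T1P and 2.40% and 6.80% in 4T1M, and one of at least 5 genes 2.72% and 4.77%, and 1.30% and 3.56%. With no upper gene limit the shares were 6.29% and 10.1% in 4T1P and 2.34% of all kept cells in 4T1M, and with at most 5% mitochondrial UMIs 1.24% of these. Thinning gave 1.44% and 2.44%, and 0.556% and 1.52%. The second gene set gave 2.03% and 3.14%, and 1.13% and 2.48%, with 59.0% of the proliferating cells of 4T1M macrophage-like. Within the Ccl12 cluster the 4T1P share was 11.5%.

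The macrophage list of 4T1M, proliferating over other cells, had medians of 0.026 with TMM, 0.013 with DESeq2 size factors and 1.21 with means of CPM over cells, and 0.32 in 4T1P with those means. The neutrophil list then had -3.56 and -2.82. Genes higher in proliferating cells numbered 3521 with no filter, 1788 with means over cells and 1491 with no upper gene limit, and 1093 were lower with means. Among macrophage-like cells 2189 were higher with no filter and 470 lower with means, which put the S phase median of 4T1P at 1.67. Between the libraries 2022 genes were higher and 1646 lower with no filter, 1062 and 794 with means, and 355 higher with no upper gene limit, where the G2/M median was -0.11. Within the Cx3cr1 cluster, an alternative chosen after seeing the data like the Ccl12 cluster, it was 0.39. Of 702 other planned values, mostly of single genes and lists, 111 moved and 1 reversed. Of 168 values from alternatives added after seeing the data, 24 moved and 2 reversed. The planned value that reversed was the tumour epithelial list of 4T1M with no upper gene limit (2.87). The 2 added values, both within the Cx3cr1 cluster, were Cxcl3 of proliferating over other macrophage-like cells in 4T1P (0.68) and Hmox1 of 4T1M over 4T1P (0.35). The Cxcl3 value rests mostly on 1 cell. With genes at 0 UMIs set at 3, also added after seeing the data, the lower genes fell from 570 to 372 and from 253 to 141 among macrophage-like cells. The causes were not tested. Depth limits the rest: 30 and 20 proliferating cells had under 5000 UMIs, and the smaller lineages rest on 1 to 7 cells.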
